A study of Mus musculus with 2 samples.

Results

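The genes described here code for 9 surface receptors of developing T cells: Cd4, Cd8a, Cd8b1, Cd2, Cd5, Cd6, Cd27, Cd28 and Thy1. They were chosen by name, and all 9 were found by gene ID among the 43346 mouse gene entries of the tables. The data are 2 RNA-seq libraries from the thymus of newborn mice of strain B6NCrl (postnatal day 0), each made from 13 pg of total RNA of more than 200 nt, an amount that the labels equate with 1 cell. Pup 6 gave replicate 1, and pup 7 gave replicate 2. Both pups were born to a C57/Bl6 female from Charles River, the labels list 1 donor for both, and sex was not collected. The RNA came from whole tissue, so the libraries hold thymocytes together with stroma, vessels and blood, and there is 1 group with no treatment or genotype to compare. Replicate 1 had 25999043 expected counts (estimated reads) on mouse genes, and replicate 2 had 31902773.

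T cells develop in the thymus from cells that carry neither CD4 nor CD8, through a double-positive stage that carries both, to single-positive cells that keep one of them. CD4 binds MHC class II and CD8 binds MHC class I, and the cytoplasmic tails of CD4 and of the CD8 alpha chain hold the kinase LCK, which brings it to the T-cell receptor when both bind the same peptide-MHC complex. CD8 on thymocytes is mostly a heterodimer of an alpha chain (Cd8a) and a beta chain (Cd8b1). The other receptors tune the same signal. CD2 is an adhesion receptor that binds CD48 in the mouse, CD28 binds CD80 and CD86, CD27 is a TNF-receptor family member that binds CD70, CD5 and CD6 are related scavenger-receptor family proteins that dampen or shape T-cell receptor signals, and THY1 is a glycolipid-anchored glycoprotein long used as a mouse T-cell marker and also found on neurons and fibroblasts.

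The 9 genes together stood at 1785 TPM in replicate 1 and 2377 TPM in replicate 2 (mean 2081 ± 419, SD, n = 2). TPM corrects a count for transcript length and library total, and is rescaled here so that mouse genes sum to 1000000 in each library. The 9 took 0.244% and 0.316% of mouse counts. Cd8b1 alone held 46.2% of the summed TPM in replicate 1 and 41.7% in replicate 2, and the 3 coreceptor genes Cd4, Cd8a and Cd8b1 held 65.3% and 63.1%. In bulk tissue, fewer cells that carry a transcript and less of it per cell cannot be told apart.

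Cd8b1, the CD8 beta chain (chromosome 6, 71322788 to 71337494, plus strand, GRCm38), was the highest of the 9 in both libraries, at 824 TPM from 22216 counts in replicate 1 and 992 TPM from 30225 counts in replicate 2 (908 ± 119 TPM, SD, n = 2). These levels exceeded those of 97.8% and 98.6% of the mouse genes read at more than 3 counts in the same library. Cd8a, the alpha chain, lies 35.9 kb downstream on the same strand (71373427 to 71379173). It stood at 231 TPM from 14278 counts and 300 TPM from 20922 counts (266 ± 48.6 TPM). Both CD8 genes were thus close between the pups. In counts scaled to library size, replicate 2 exceeded replicate 1 by 1.11-fold for Cd8b1 (95% exact counting interval 1.09 to 1.13) and 1.19-fold for Cd8a (1.17 to 1.22). Such intervals cover read counting only, without the loss of molecules before sequencing. Within a library Cd8b1 stood 3.57-fold above Cd8a in TPM in replicate 1 and 3.31-fold above it in replicate 2, a log2 ratio of 1.78 ± 0.08 (SD, n = 2). In counts, which are not corrected for length, Cd8b1 was 1.56-fold and 1.44-fold above Cd8a. The log2 ratio of TPM is free of scaling between libraries and was the steadiest relation among the coreceptors.

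Cd4 (chromosome 6, 124864692 to 124888221, minus strand) stood at 110 TPM from 2939 counts in replicate 1 and 208 TPM from 9306 counts in replicate 2 (159 ± 68.9 TPM). It was below Cd8a in both libraries, at 0.477 and 0.693 of the Cd8a level, a log2 ratio of -0.79 ± 0.38 (SD, n = 2). The difference between the pups was larger in counts than in TPM, 2.58-fold after scaling (counting interval 2.48 to 2.69) against 1.88-fold. The effective length that the authors' estimate gave Cd4 also differed, 1305 bases in replicate 1 and 1940 in replicate 2, because the mix of its transcripts differed, as described further on.

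**Figure D1:**
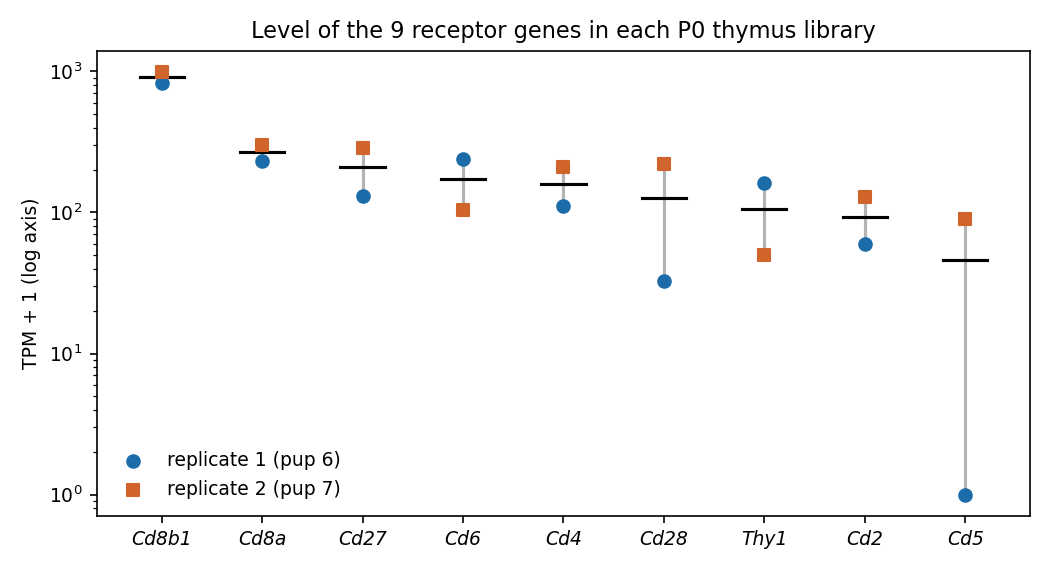
TPM + 1 of the 9 receptor genes on a log axis, ordered by mean; circles are replicate 1, squares replicate 2, black bars the mean of both, and grey lines join the libraries. Cd8b1 sits apart at 824 and 992 TPM, while Cd5 is at 0 in replicate 1 and 89.5 TPM in replicate 2.

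Cd2 (chromosome 3, 101275899 to 101287939, minus strand) stood at 58.4 TPM from 1254 counts in replicate 1 and 127 TPM from 3084 counts in replicate 2 (92.6 ± 48.4 TPM). Replicate 2 was 2.17-fold higher in TPM and 2.004-fold higher in scaled counts (counting interval 1.88 to 2.14). Cd28 (chromosome 1, 60716800 to 60773359, plus strand) was farther apart, at 31.6 TPM from 2076 counts and 221 TPM from 17044 counts (126 ± 134 TPM). Its level was 6.98-fold higher in replicate 2, the widest gap among the 8 genes read in both libraries. Cd27 (chromosome 6, 125232622 to 125237010, minus strand) stood at 130 TPM from 2689 counts and 288 TPM from 7669 counts (209 ± 111 TPM), 2.21-fold higher in replicate 2. Cd27 lies inside Vamp1, a gene of the opposite strand, whose exons share 0 bases with those of Cd27 and which had 0 and 45 counts. The microRNA gene Mir8113, which overlaps Cd27 on its own strand, had 0 counts in both libraries.

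Cd5 and Cd6 lie 50.3 kb apart on chromosome 19, both on the minus strand, and differed between the pups in opposite directions. Cd5 (10717116 to 10739002) had 0 counts in replicate 1 and 4071 counts, or 89.5 TPM, in replicate 2. Taking 3 counts in the library as the floor that a count of 0 leaves, that is at least 1106-fold higher in replicate 2 in scaled counts, which bounds the reads and not the expression. Cd6 (10789341 to 10830058) had 12522 counts, or 240 TPM, in replicate 1 and 6643 counts, or 104 TPM, in replicate 2 (172 ± 96.1 TPM). Replicate 1 was 2.31-fold higher in TPM and in scaled counts (counting interval 2.25 to 2.38). In replicate 2, where both were read, Cd5 stood at 0.862 of the Cd6 level.

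Thy1 (chromosome 9, 44043384 to 44048579, plus strand) was the other gene that stood higher in replicate 1, with 5334 counts, or 160 TPM, in replicate 1 and 1860 counts, or 49.2 TPM, in replicate 2 (104 ± 78.0 TPM). In scaled counts replicate 1 was 3.52-fold higher (counting interval 3.34 to 3.71). Thus 7 of the 9 genes stood higher in replicate 2 and 2 in replicate 1. All 9 kept their direction under each of the 9 estimates, scalings and length choices tried, the reported one included.

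Ordered by mean TPM, the genes ran Cd8b1, Cd8a, Cd27, Cd6, Cd4, Cd28, Thy1, Cd2 and Cd5. The lowest Cd8b1 value (824 TPM) lay above the highest Cd8a value (300 TPM). For every other pair of neighbours in this order the ranges of the 2 libraries overlapped. Within each library, however, Cd8a stood above Cd27, at 231 against 130 TPM in replicate 1 and 300 against 288 TPM in replicate 2. Cd2 likewise stood above Cd5, at 58.4 against 0 TPM and 127 against 89.5 TPM. The remaining neighbours changed order between the libraries. Only Cd8b1 held the same rank in both pups. Cd6 was the second highest in replicate 1 and ranked 7 in replicate 2, Thy1 ranked 4 and 9, and Cd28 ranked 8 and 4.

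More than 3 counts were found in both libraries for 8 of the 9 genes. Among the 11839 mouse genes above 3 counts in either library, 57.2% were above it in both. At least 4-fold between the pups were 2 of the 9, Cd5 and Cd28, both higher in replicate 2. With coding transcripts alone, a setting described further on, there were 3, Cd4 being added at 23.3 and 105 TPM. Of the 9341 mouse genes averaging at least 100 counts, 50.9% were that far apart, 29.4% higher in replicate 2 and 21.5% higher in replicate 1. With coding transcripts alone the share was 45.7%. Genes without a coding transcript stayed in that total at 0 TPM and could not be called, so this share is not a like background. Many of the 9341 genes are lower than the receptors, so the closer background is the 3762 genes whose mean TPM lay between those of Cd5 and Cd8b1. Of these, 23% were at least 4-fold apart and 9.06% had 3 or fewer counts in 1 library, which is near the members' 2 of 9 and 1 of 9. The log2 ratio (replicate 2 over 1) had a median of 0.91 for the 9 genes and 0.17 for all 9341. With 2 libraries of 1 group, none of these differences has a test.

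**Figure D2:**
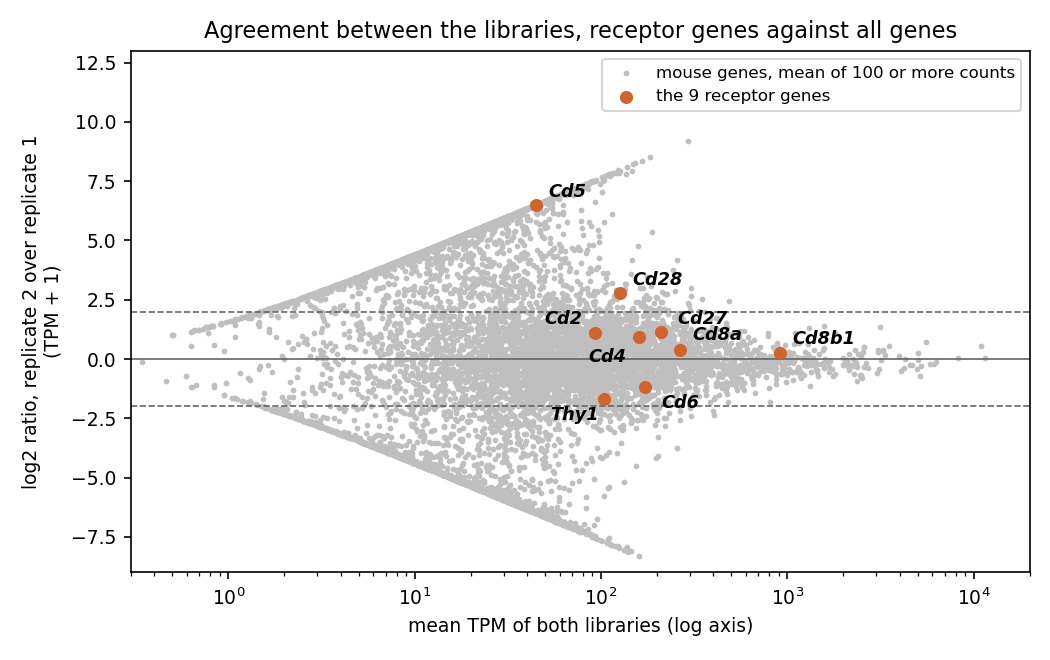
Log2 ratio of TPM + 1, replicate 2 over replicate 1, against mean TPM on a log axis; grey points are the 9341 mouse genes averaging at least 100 counts, orange points the 9 receptor genes, and dashed lines mark 4-fold. Cd5 and Cd28 lie outside the dashed lines, and Cd8b1 (0.27) and Cd8a (0.37) lie nearest to the line of no difference.

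The transcript tables hold 27 annotated transcripts of the 9 genes. Both pups had more than 3 counts of 16 of these, 1 pup alone had them of 4, and 7 stayed at or below 3 counts in each pup. Cd8b1, Cd5 and Thy1 have 1 transcript each in these tables, and the other 6 genes have several. In 4 of those 6 (Cd8a, Cd2, Cd6 and Cd28) the transcript of highest TPM was the same in both pups, against 60.4% of the 4457 genes with several transcripts and more than 3 counts in both. The split of reads among transcripts is the authors' estimate. Its deposited lower and upper bounds, whose level is not stated, are given as bounds. They lie around the posterior mean, so a TPM can fall at or past its upper bound.

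Cd8a was divided between 2 coding transcripts that differ by 1 exon. Cd8a-201, which has the exon, stood at 170 TPM in replicate 1 (bounds 159 to 173) and 203 TPM in replicate 2 (191 to 206). Cd8a-202, which skips it, stood at 61.2 TPM (53.2 to 66.1) and 96.5 TPM (87.3 to 101). The skipped form thus made up 26.5% and 32.2% of Cd8a TPM (29.3% ± 4.05, SD, n = 2), and Cd8a-201 was 2.78-fold and 2.11-fold above it. Mouse CD8 alpha is known to occur as a full-length chain and as an alpha-prime chain with a shortened cytoplasmic tail, made by skipping of an exon that codes for part of that tail. The exon is exon 4 of 5 in Cd8a-201, it lies within the coding sequence at chr6:71375888-71375918 on the plus strand, and its 31 bases leave a remainder of 1 on division by 3, so the reading frame after it differs between the transcripts. In the GENCODE M21 annotation (GRCm38), from which the sequences printed here also come, the coding sequence has 741 bases in Cd8a-201 and 666 in Cd8a-202. The sequences below show the exon in capitals and 20 bases of each neighbouring exon in lower case.
Cd8a-201 with the exon: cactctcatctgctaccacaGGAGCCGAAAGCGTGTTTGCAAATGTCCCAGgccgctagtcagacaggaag
Cd8a-202 without the exon: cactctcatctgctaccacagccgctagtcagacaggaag

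Cd6 also had a pair of coding transcripts that differ, apart from their ends, by an internal exon, and here the pups were unlike. Cd6-203, with the exon, was close between them, at 96.8 TPM (bounds 87.0 to 102) and 84.0 TPM (78.6 to 85.3). Cd6-202, without it, stood at 51.1 TPM (41.4 to 57.7) from 2831 counts in replicate 1 and 0.406 TPM (0.00762 to 1.78) from 25.3 counts in replicate 2. Of the 2 forms together, Cd6-202 made up 34.5% in replicate 1 and 0.481% in replicate 2. Of all Cd6 TPM it made up 21.3% and 0.39%. Another transcript, Cd6-201, starts further downstream, also holds the exon and is annotated as retaining an intron. It stood at 91.8 TPM (84.2 to 95.1) and 19.3 TPM (15.2 to 22.4). The higher Cd6 level of replicate 1 therefore lay in Cd6-202 and Cd6-201, while Cd6-203 differed by 1.15-fold. The exon is exon 9 of 13 in Cd6-203, at chr19:10792828-10792944 on the minus strand. Its 117 bases are a whole number of codons, so the frame is kept without it. It is shown in capitals between 20 bases of each neighbour.
Cd6-203 with the exon: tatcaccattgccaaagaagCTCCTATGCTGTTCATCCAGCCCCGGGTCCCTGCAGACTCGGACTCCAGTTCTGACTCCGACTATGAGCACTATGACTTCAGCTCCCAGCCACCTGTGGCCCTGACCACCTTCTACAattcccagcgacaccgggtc
Cd6-202 without the exon: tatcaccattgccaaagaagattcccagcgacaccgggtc

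In Cd4, Cd27 and Cd28 a large part of the TPM lay in short transcripts annotated as retaining an intron, which carry no coding sequence in the annotation. Each of them follows the coding transcript through its first exons and then runs on into an intron. The lines below show where they part, with the last 20 bases of the shared coding exon in lower case and the next 30 bases in capitals. For the retained form those 30 bases are intron, beginning with GT in all 3 genes, and for the spliced form they are the next exon.
Cd4-202 running into the intron: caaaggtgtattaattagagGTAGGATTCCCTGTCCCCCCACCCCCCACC
Cd4-201 spliced to the next exon: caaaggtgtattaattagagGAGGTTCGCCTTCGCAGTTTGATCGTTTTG
Cd27-206 running into the intron: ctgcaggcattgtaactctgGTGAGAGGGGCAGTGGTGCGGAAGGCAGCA
Cd27-201 spliced to the next exon: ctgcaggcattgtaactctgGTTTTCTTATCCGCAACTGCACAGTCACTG
Cd28-203 running into the intron: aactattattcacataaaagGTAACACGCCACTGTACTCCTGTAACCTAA
Cd28-201 spliced to the next exon: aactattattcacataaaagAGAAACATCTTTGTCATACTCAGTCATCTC

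For Cd4 the retained intron lies after exon 3 on the minus strand, its first 30 bases at chr6:124879277-124879306, and Cd4-202 holds 566 of its 6176 bases. Cd4-202 was close between the pups, at 86.9 TPM (bounds 80.2 to 89.3) in replicate 1 and 102 TPM (95.1 to 105) in replicate 2. Cd4-201, the coding transcript, stood at 23.3 TPM (21.5 to 24.1) and 105 TPM (100.2 to 105), 4.50-fold higher in replicate 2. In counts the retained form took 1504 and 1997 reads, and the coding form took 1435 and 7304. The retained form is 946 bases long and the coding one 3108, so each read weighs more in the TPM of the retained form. It held 78.8% and 49.2% of Cd4 TPM, or 51.2% and 21.5% of Cd4 counts. With coding transcripts alone, a choice made after the values were seen, Cd4 stood at 64.2 ± 57.8 TPM (SD, n = 2) and ranked 8 of the 9 genes instead of 5.

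Cd27 had the same arrangement. The intron after exon 2 on the minus strand (first 30 bases at chr6:125236443-125236472) is entered by Cd27-206, which holds 365 of its 1778 bases. Cd27-206 was close between the pups, at 70.4 TPM (bounds 64.1 to 73.2) and 60.1 TPM (54.1 to 63.4), while the coding Cd27-201 stood at 58.9 TPM (54.5 to 59.95) and 188 TPM (179 to 188), 3.20-fold higher in replicate 2. Another retained form, Cd27-204, had 0 and 357 counts. In Cd28 both forms differed together. The intron after exon 2 on the plus strand (first 30 bases at chr1:60763336-60763365) is entered by Cd28-203, which holds 1291 of its 1941 bases. Cd28-203 stood at 12.7 TPM (10.9 to 14.0) and 77.4 TPM (72.5 to 78.8), and the coding Cd28-201 at 18.9 TPM (17.4 to 19.4) and 143 TPM (138 to 142). The retained share of Cd28 was 40.3% and 35.1% of TPM.

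**Figure D3:**
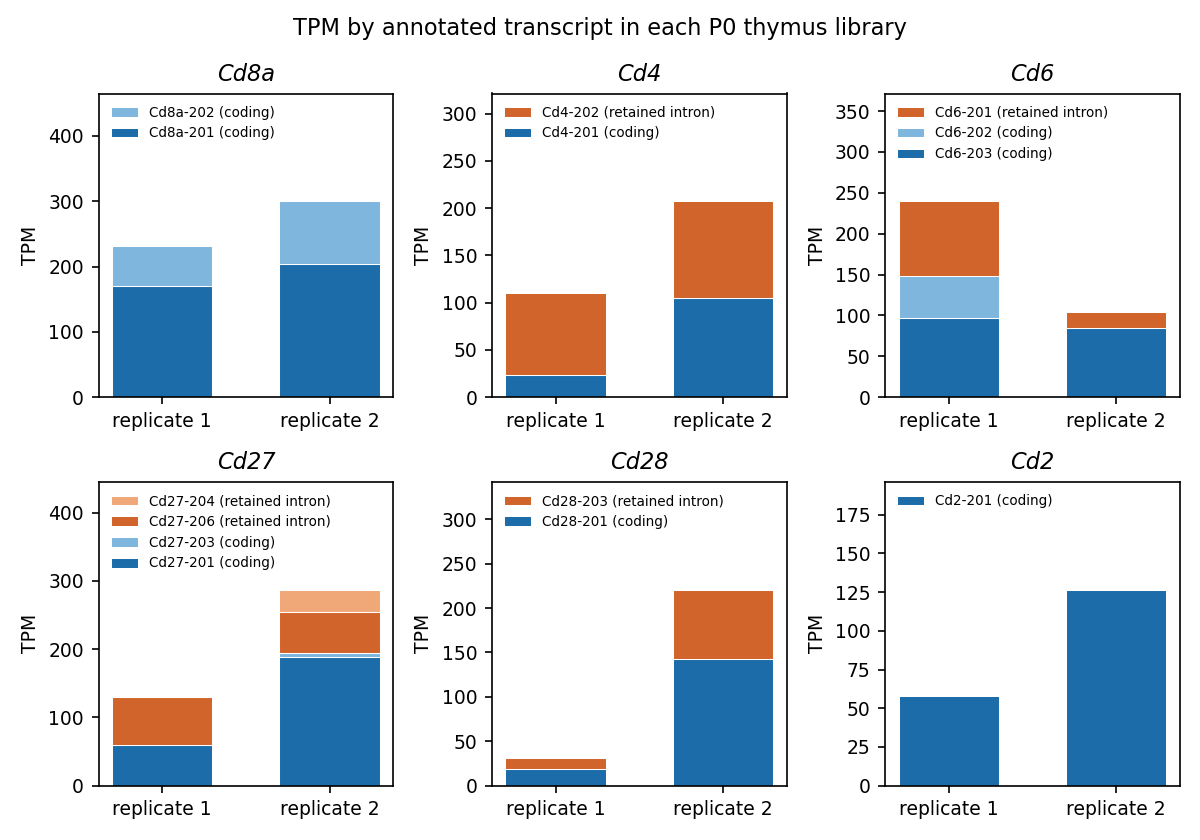
TPM of each annotated transcript at 1 TPM or more in either library, stacked by library for the 6 genes with several transcripts; blue shades are coding transcripts and orange shades retained-intron transcripts. The Cd4-202 and Cd27-206 segments are close between the libraries while the coding segments below them are larger in replicate 2, and Cd6-202 is drawn at 51.1 TPM in replicate 1 and 0.406 TPM in replicate 2.

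Retained-intron transcripts held little of Cd2, at 0.732% and 0.261% of its TPM. Across the 2577 genes with both classes of transcript, more than 3 counts in both libraries and at least 100 on average, the median share was 0.318% in replicate 1 and 0.469% in replicate 2. A threshold of 20% or more of TPM in both libraries was chosen after the values were seen. It was reached by 14.1% of these genes, and by Cd4, Cd27 and Cd28. Cd6 had 38.3% and 18.6% of TPM. In counts, which are not corrected for length, Cd4 still reached 20% in both libraries, at 51.2% and 21.5%. Cd27 and Cd28 reached it in replicate 1 only, with 16.4% and 17.6% of their counts in replicate 2.

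**Figure D4:**
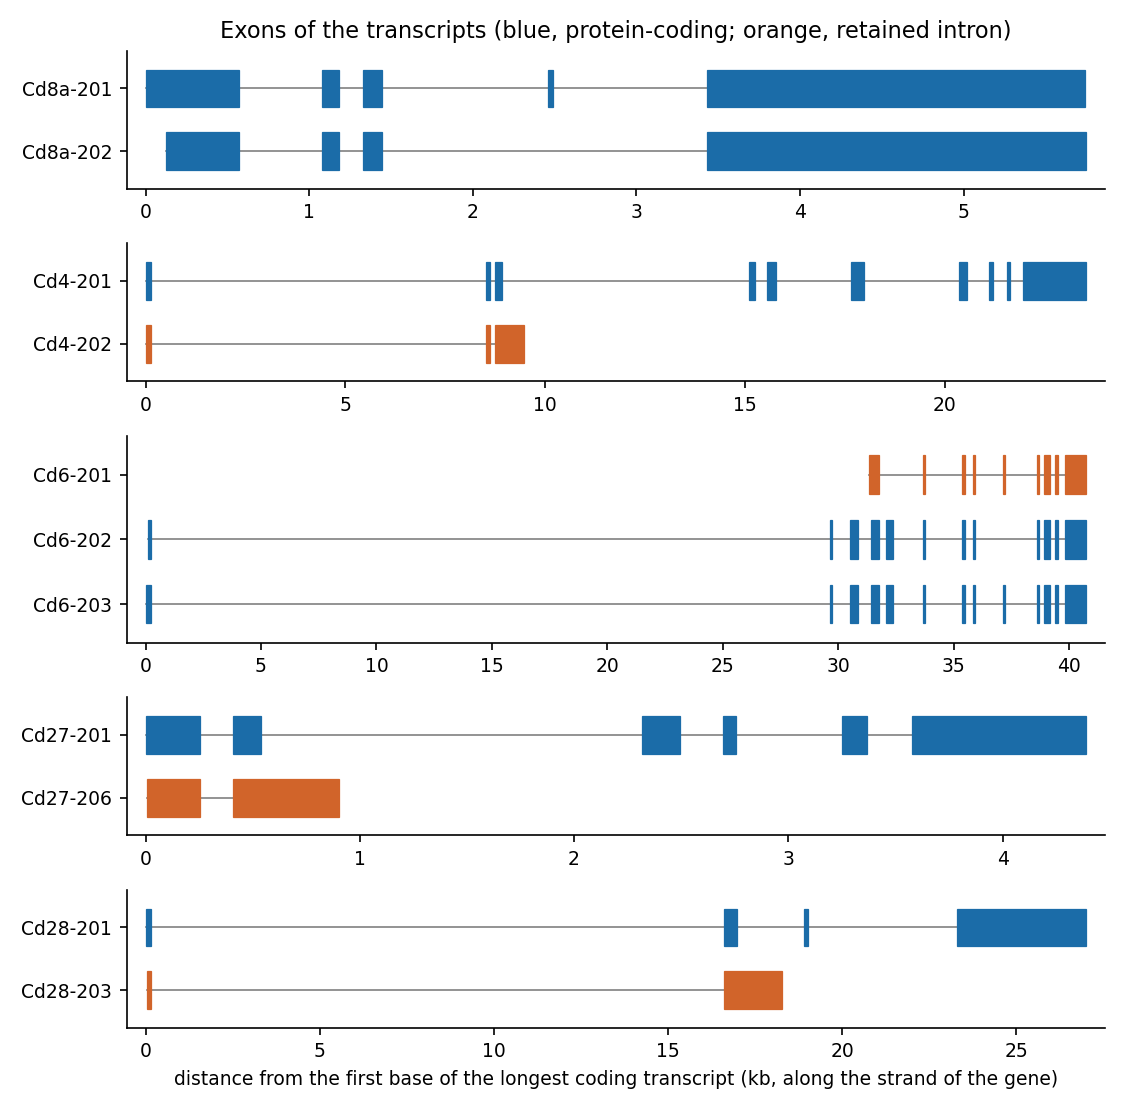
Exons of the transcripts compared in the text, drawn to scale along each gene from the first base of its longest coding transcript, in kb, with introns as lines; blue is coding and orange retained-intron. Cd8a-201 has an exon that Cd8a-202 lacks, and Cd4-202, Cd27-206 and Cd28-203 end within an intron after their first shared exons.

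The ligands of the coreceptors were abundant in the same libraries. All 6 listed genes of MHC class I and II were read in both pups, with sums of 6306 and 7844 TPM. Of the 6, 0 were 4-fold apart. The share was 50.9% of all mouse genes averaging at least 100 counts, and 23% of genes in the receptors' range of mean TPM. The CD4 ligands listed are the class II chains H2-Ab1, at 1153 and 2459 TPM, H2-Aa, at 884 and 1429 TPM, and H2-Eb1, at 604 and 396 TPM. For CD8 they are B2m, the light chain of class I, at 2351 and 1966 TPM, and 2 heavy chains. H2-D1 stood at 680 and 1087 TPM, and H2-K1 at 633 and 506 TPM. Of the 6 genes, 3 were higher in each pup. H2-D1 and H2-K1 belong to a family of near-identical class I genes, so their values depend on how shared reads were divided. The other MHC genes named here had whole counts in both libraries.

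Ligands of the other receptors were below those of the MHC, and most differed between the pups or had 0 counts. The 6 listed genes summed to 31.2 TPM in replicate 1 and 208 TPM in replicate 2, and Alcam, the CD6 ligand, was the 1 gene read in both, at 31.2 and 79.6 TPM. Cd48, the ligand of CD2, had 0 and 2721 counts. In replicate 2 that was 108 TPM, near the 127 TPM of Cd2 and above Cd5 and Thy1. Cd80, a ligand of CD28, had 0 and 723 counts, 19.5 TPM in replicate 2. In scaled counts Cd48 and Cd80 were at least 739-fold and at least 196-fold higher in replicate 2, against the same floor of 3 counts. Cd70, the ligand of CD27, Cd86, the other ligand of CD28, and Cd72, proposed as a ligand of CD5, had 0 counts in both, which allows up to 0.115 and 0.0940 CPM (counts scaled to 1000000 mouse counts).

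The kinase and adaptors that bind the receptors' tails were led by Lck, at 1424 and 1403 TPM, which stood above every receptor of the set in both libraries and differed less between the pups than any of them. Siva1, an adaptor of CD27, stood at 208 and 209 TPM, and Lcp2, an adaptor of T-cell receptor signalling, at 79.7 and 199 TPM. Pik3r1, a subunit of the kinase that CD28 recruits, stood at 149 and 53.0 TPM. Traf2, which binds CD27, had 3173 counts in replicate 1 and 0 in replicate 2, and Grb2, which binds CD28, had 0 and 1395. Of the 12 listed genes 8 were above 3 counts in both libraries. Of the 10 averaging at least 100 counts, 4 were 4-fold apart, 2 in each direction. Beside this stand 50.9% of all mouse genes at that minimum and 23% of genes in the receptors' range of mean TPM.

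Other costimulatory and coinhibitory receptors were read in part, and seldom in both pups. Of 16 listed genes, 2 were above 3 counts in both pups, 5 in a single pup, and 9 had 0 counts. The 7 above 3 counts in either pup compare with 27.3% of the 43346 mouse gene entries, many of which are not coding genes. Slamf6, a self-binding receptor of double-positive thymocytes, stood at 259 and 311 TPM, a level like that of Cd8a, and Cd96 at 63.9 and 54.9 TPM. Ctla4, the inhibitory relative of Cd28, had 0 and 2156 counts, Btla 0 and 2350, Icos 0 and 450 and Slamf1 0 and 139, whereas Cd226 had 1424 and 0. The 9 unread genes were Pdcd1, Cd40lg, Tnfrsf4, Tnfrsf9, Tnfrsf18, Tigit, Lag3, Ly9 and Cd160, none of them with a count in either library. Beside these, 13 of 14 other thymocyte surface genes were read in both pups. Ly6e stood at 2217 and 2552 TPM, Cd52 at 675 and 494, Ptprc (CD45, the phosphatase that activates LCK) at 354 and 738 and Cd81 at 320 and 458. Cd7 had 0 and 1199 counts.

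**Figure D5:**
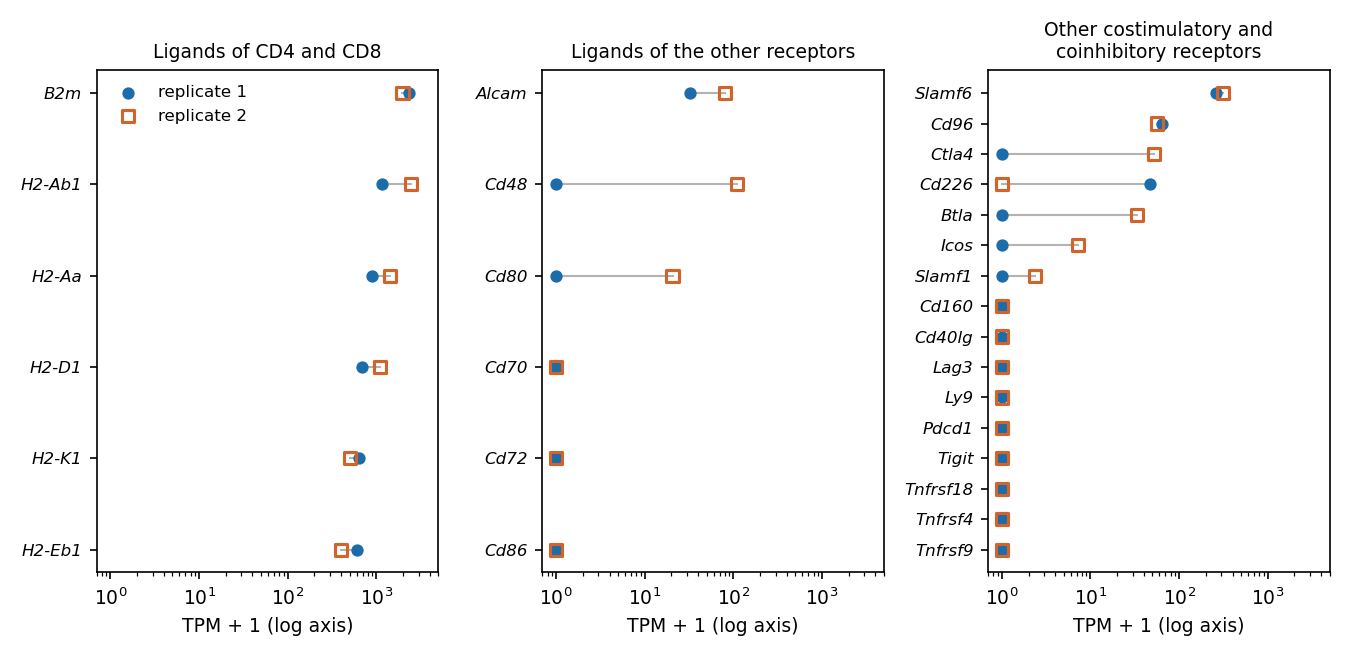
TPM + 1 on a log axis for the ligands of CD4 and CD8, the ligands of the other receptors, and other costimulatory and coinhibitory receptors; filled circles are replicate 1, open squares replicate 2, and a value of 1 means 0 TPM. MHC genes lie between 396 and 2459 TPM in both libraries, while 9 of the 16 other receptors are at 0 in both.

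Of 15 regulators of Cd4 and Cd8 transcription, 14 were above 3 counts in both libraries. Tcf7, a factor of T-lineage specification, stood at 613 and 569 TPM, Satb1, a chromatin organiser of thymocytes, at 263 and 292, Myb at 204 and 90.7 and Ikzf1 at 139 and 129. Zbtb7b, the factor of CD4 lineage choice, had 76 and 0 counts. The 4-fold threshold was passed by 4 of the 14 averaging at least 100 counts. Beside this stand 50.9% of all mouse genes at that minimum and 23% of genes in the receptors' range of mean TPM. The 4 regulators, 2 in each direction, were named after their values were seen. Lef1, a relative of Tcf7, stood at 22.1 and 168 TPM, and Runx3, a factor of the CD8 lineage that silences Cd4, at 3.23 and 19.8 TPM. In the other direction, Tcf3, an E protein, stood at 109 and 2.87 TPM, and Runx1, which represses Cd4 in early thymocytes, at 41.3 and 6.90 TPM. By the rule for genes alike in level, the coding genes nearest to Cd8b1 over the 2 libraries included Rps27 and Rps4x, those nearest to Cd8a included Gm10131 and Smu1, and those nearest to Cd4 were Klhl6, Sae1 and Cnot2. The distances of these 7 genes on the log2(TPM + 1) scale ran from 0.03 for Gm10131 to 0.09 for Cnot2. Over 2 libraries such likeness is easily met, with 42 coding genes within 0.25 of Cd4, 36 of Cd8a and 17 of Cd8b1.

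Markers of the cell types that can carry these receptors were measured beside them. The 8 markers of alpha-beta T cells were all above 3 counts in both pups, with sums of 14837 and 14439 TPM. Their highest were the T-cell receptor constant regions Trbc2, at 6500 and 6037 TPM, and Trbc1, at 3150 and 3565 TPM, which are near-identical copies whose reads can be exchanged, then Lck and the CD3 chain Cd3g, at 1120 and 715 TPM. Thy1 is also carried by mesenchyme and neurons. Mesenchymal markers summed to 1570 and 1335 TPM with 6 of 8 above 3 counts in both, led by Sparc at 959 and 573 TPM, Col3a1 at 235 and 370, Dcn at 232 and 205 and Col1a2 at 51.7 and 96.4, while Lum had 1 and 11 counts. Neuronal markers summed to 107 and 62.3 TPM with 0 of 8 above 3 counts in both. Tubb3 had 2459 and 3 counts, Rbfox3 991 and 0, Elavl4 3 and 1820 and Stmn2 6 and 1, and Nefm was at 0 in both. Both sums were larger in replicate 1, as Thy1 was, and their members were divided in direction. Of the 6 mesenchymal genes above 3 counts in both, 3 were higher in each pup, and the list's median log2 ratio was 0.08, opposite in sign to its sum, in which Sparc is the largest term. Among neuronal genes 4 were above 3 counts in 1 pup only, and of these Elavl4 was higher in replicate 2. The part of mesenchyme and neurons in the Thy1 level was not tested.

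Macrophages and dendritic cells can carry Cd4 or Cd8a. Their markers summed to 513 and 849 TPM with 5 of 12 above 3 counts in both, led by Tyrobp at 84.0 and 354 TPM, C1qb at 238 and 176, C1qa at 73.5 and 161 and Fcer1g at 63.9 and 48.5. Adgre1 had 2630 and 0 counts, Csf1r 1051 and 1 and Flt3 0 and 1142, and the dendritic genes Itgax, Xcr1, Clec9a and Siglech had 0 in both. B cells can carry Cd27, and some carry Cd5. Their markers summed to 327 and 540 TPM, with Ighm at 327 and 482 TPM, Cd79b at 0 and 1527 counts, Cd79a at 0 and 2, Ms4a1 at 0 and 1, and Pax5 at 0 in both. NK and innate lymphoid cells can carry Cd2, Cd27 and Thy1. Their markers summed to 22.3 and 186 TPM with 1 of 8, Id2, above 3 counts in both, at 25 and 1750 counts. Nkg7 had 0 and 2173 counts, Klrd1 had 345 and 0, and Ncr1, Klrb1c, Prf1, Eomes and Il2rb had 0 in both. The B-cell and NK sums were larger in replicate 2, as were Cd2, Cd5 and Cd27, while Thy1 and the NK marker Klrd1 were higher in replicate 1. The part of these cells in the levels of the receptors was not tested.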

How the data were processed

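Total RNA of P0 thymus was measured in 2 libraries, made with spike-ins after mirVana extraction by a protocol whose linked document is named for Smart-seq, per the labels. The deposited tables give, per gene and transcript, an expected count (estimated reads, not always whole), TPM with posterior mean versions, and each transcript's percent of its gene's TPM. They also hold the lower and upper bounds of the authors' TPM estimate, treated as a signal on the TPM scale. The assembly is mm10, per the labels, and the annotation M4, per the deposited text notes. Column names are those RSEM writes, per the file headers. Which aligner and counter were used, and whether strand was counted, is not given in the sources used here. A gene's TPM depends on the transcript mix of the authors' estimate.

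IDs were matched without version to GENCODE M21 (42462 of 43346 mouse entries), which gave names, classes, exons and sequences. Transcript lengths are those of the tables. TPM was rescaled to 1000000 over mouse genes, and bounds by the sum of the posterior means. Log2 ratios set replicate 2 over replicate 1, after adding a pseudocount of 1 TPM, for genes averaging at least 100 counts. With 1 group no test was made. The SD of the 2 pups holds animal, RNA handling and library together. Intervals and floors cover counting error only, as reads carry no molecular identifiers.

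The 9 genes and the 12 gene lists (119 names, all matched) were chosen with earlier results of these data known. Named genes were the 9, the 4 of highest mean TPM per list, those at 10 counts or above in 1 library and at most 3 in the other, and the 3 coding genes nearest in level to Cd4, Cd8a and Cd8b1. A few genes that this rule selects are not reported here. Other listed genes, at or near 0 or 4-fold apart, and the MHC genes H2-Eb1 and H2-K1 were named after their values were seen. Alternatives were other estimates, scalings (edgeR 4.0.16 TMM and DESeq2 1.42.0 size factors, on rounded counts), lengths, pseudocounts, minimums, folds and each library alone, in Python 3.11.15 and R 4.3.3.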

Additional observations from a re-analysis of the deposited data

How the results depend on the processing

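Cd8b1 stayed first and Cd5 last in all 7 other estimates, scalings and lengths of the level. The full order was kept under 5 of those 7. Most of these, namely TPM as deposited, TPM without mitochondrial genes, and the edgeR and DESeq2 factors, scale the 9 genes of a library alike. They could therefore hardly change the order. Counts per kilobase of the longest transcript kept 6 of 9 ranks. Coding transcripts alone, a choice made after the data were seen, kept 5. In single libraries 2 to 4 ranks were kept. The summed level ran from 1803 to 2463 TPM over those 7 settings and from 1785 to 2377 TPM in single libraries. The log2 ratio of Cd8b1 over Cd8a stayed between 1.72 and 1.83, which are the values of the single libraries. The other settings could hardly change it. Cd8b1 has 1 annotated transcript, and the 2 Cd8a transcripts are both coding and alike in length, at 3130 and 3099 bases. For Cd4 over Cd8a the log2 ratio, -0.79, ran from -1.06 to -0.53 in single libraries. It was -1.70 with the longest transcript as length and -2.38 with coding transcripts alone, where the short Cd4-202 is weighted less or left out. The median log2 ratio of the 9 genes, 0.91 as reported, was 0.91 with a pseudocount of 0.1 TPM, 0.86 with 10 TPM, 0.91 for posterior means and for edgeR factors, 0.96 for DESeq2 factors and, under settings chosen after the data were seen, 0.99 for CPM, 1.10 with the longest transcript as length and 1.11 with coding transcripts alone. The count of genes at least 4-fold apart was 3 with coding transcripts alone, where Cd4 is added, 6 at 2-fold and 1 at 8-fold, and 2 under the other settings run; the 2-fold and 8-fold counts stand beside 67.7% and 41% of the 9341 genes. Over those genes, 4751 were 4-fold apart as reported, 2558 with a pseudocount of 10 TPM and 2128 of 5956 at a higher count minimum. With coding transcripts alone 4273 were, but genes without a coding transcript stayed in the total at 0 TPM and could not be called. The 8 genes read in both libraries stayed 8 at minimums of 1, 10 and 100 counts and with the deeper library thinned. These settings could not change that number, as the 8 had 1254 or more counts and Cd5 had 0 in replicate 1. Cd27 has the same leading transcript in both libraries by counts, but not by TPM. No paired analysis was possible because there is 1 group. Depth does not limit the 8 genes read in both, which had 1254 or more counts, but 0 counts of Cd5 in replicate 1 does not show absent expression.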
